A study of Mus musculus with 2 samples.

Results

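The SOX genes Sox4, Sox11 and Sox12 (group SoxC), Sox5, Sox6 and Sox13 (SoxD) and Sox8 and Sox9 (SoxE) were examined for histone methylation in pulp cells of the mouse incisor that had lately replicated their DNA. These 8 genes were chosen by name out of 21631 protein-coding genes (Y chromosome left out). Each gene was taken at its RefSeq position on mm10 with 30 kb added on either side, and every called island of H3K4me3 or H3K27me3 that touched this stretch was collected. CD1 pups aged 5 days were injected once with EdU, a thymidine analogue taken up during DNA replication, at 3.3 µg per g of body weight, and after 24 h the EdU-positive pulp cells were flow sorted for chromatin immunoprecipitation. Both libraries, 1 for H3K4me3 and 1 for H3K27me3, carry this same treatment, strain, age and tissue in the labels, and there was no group without EdU. The labels do not say how many pups were pooled, and the sort was on EdU alone, so any dividing cell type of the pulp could enter.

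SOX proteins bind DNA through a high-mobility-group box and bend it. SoxC proteins are transcriptional activators needed by progenitor cells of mesenchyme and nerve. SOX9 is required for cartilage formation and in several stem cell pools, SOX5 and SOX6 act beside it on cartilage genes without an activation domain of their own, and SOX8 is its close relative. H3K4me3 marks active and poised promoters, H3K27me3 is laid down by Polycomb repressive complex 2, and promoters that carry both are often those of developmental regulators.

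An island is a stretch called from 200 bp windows, and it may include short gaps without enrichment. Its height is the authors' value at its summit, comparable within a mark only. With 1 library for each mark and without input, no value has a replicate check, no test was made, and the depth is unknown. Counts of members are therefore set beside the share of all protein-coding genes called by the same rule. Islands of both marks at the same place may come from the same cells or from different cells of the sorted mixture, which cannot be told apart. All 8 transcription factor genes listed as markers of dental mesenchyme had both marks at their ends (16.8% of all genes). Their H3K4me3 islands were 12.7 kb wide and 131 high at the median. Dlx1 and Dlx2 had identical values in both marks, and both genes enter this count and these medians. H3K4me3 lay at an end of 58.9% of all genes. Among markers of other cell types it lay at 4 of 5 genes for dental epithelium and 1 of 4 for endothelium. It lay at 2 of 4 for blood and 2 of 3 for chondrocytes. The median heights were 50, 65, 41 and 23 in that order. These lists are too short to compare with the share of all genes. Krt5, Pecam1, Cdh5, Tek, Ptprc and Hba-a1 had no island of either mark at their ends. The part of other cell types in the values below was not tested.

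The promoter sequences show the range of starts that the islands met. Of the 8 members, 7 matched RefSeq promoters of build GRCm38.p6 (250 bases before to 50 after a start), with 12 listed starts, 6 of them in Sox6. The start of Sox12 lay under H3K4me3 alone and was the richest in CpG sites, that of Sox4 lay under H3K4me3 alone with fewer, that of Sox8 lay under both marks, start 1 of Sox6 lay under H3K27me3 with H3K4me3 over 64.7% of its window, and start 3 of Sox6 lay under neither. All listed starts of Sox6 lie inside the gene as annotated. Each is printed 5′ to 3′ on the minus strand, with every CG in capitals.
Sox12, chr2:152397997-152398296, 47 CG: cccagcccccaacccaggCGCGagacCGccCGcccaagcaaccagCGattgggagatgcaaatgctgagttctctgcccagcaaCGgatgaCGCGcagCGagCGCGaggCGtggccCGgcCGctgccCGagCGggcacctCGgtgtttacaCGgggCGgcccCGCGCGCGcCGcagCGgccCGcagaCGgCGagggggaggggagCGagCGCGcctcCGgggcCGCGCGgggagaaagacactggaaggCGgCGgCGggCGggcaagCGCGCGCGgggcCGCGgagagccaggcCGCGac
Sox4, chr13:28953650-28953949, 12 CG: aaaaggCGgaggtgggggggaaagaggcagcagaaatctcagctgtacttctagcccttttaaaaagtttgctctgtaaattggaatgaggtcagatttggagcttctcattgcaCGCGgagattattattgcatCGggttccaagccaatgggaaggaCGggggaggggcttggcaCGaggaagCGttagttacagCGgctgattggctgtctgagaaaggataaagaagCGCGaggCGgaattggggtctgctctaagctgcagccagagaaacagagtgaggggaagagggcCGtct
Sox8, chr17:25570637-25570936, 21 CG: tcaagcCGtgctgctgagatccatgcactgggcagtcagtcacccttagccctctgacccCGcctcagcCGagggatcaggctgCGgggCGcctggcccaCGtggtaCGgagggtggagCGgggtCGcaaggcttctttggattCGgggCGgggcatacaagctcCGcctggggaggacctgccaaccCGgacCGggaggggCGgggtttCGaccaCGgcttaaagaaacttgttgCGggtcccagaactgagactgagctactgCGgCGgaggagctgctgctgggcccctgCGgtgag
Sox6 start 1, chr7:116038695-116038994, 11 CG: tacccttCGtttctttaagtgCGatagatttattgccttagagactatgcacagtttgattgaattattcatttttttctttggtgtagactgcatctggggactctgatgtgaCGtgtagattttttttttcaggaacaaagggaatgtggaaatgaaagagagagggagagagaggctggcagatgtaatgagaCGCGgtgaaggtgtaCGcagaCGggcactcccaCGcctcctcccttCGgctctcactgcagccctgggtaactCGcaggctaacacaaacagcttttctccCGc
Sox6 start 3, chr7:115995037-115995336, 2 CG: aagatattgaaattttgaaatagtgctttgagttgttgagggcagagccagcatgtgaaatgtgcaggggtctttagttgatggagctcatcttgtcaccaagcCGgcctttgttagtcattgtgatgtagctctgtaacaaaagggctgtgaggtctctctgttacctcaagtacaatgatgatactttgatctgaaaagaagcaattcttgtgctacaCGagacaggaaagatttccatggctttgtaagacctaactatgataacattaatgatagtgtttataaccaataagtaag

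Every member had H3K4me3 at a gene end, and 4 of them had H3K27me3 at an end as well. An H3K4me3 island lay within 1 kb of an annotated end of 8 of the 8 genes, against 58.9% of all protein-coding genes. H3K27me3 lay within 1 kb of an end of 4 of the 8, namely Sox6, Sox13, Sox8 and Sox9, against 22.4% of all genes. These 4 carried both marks, a state found at 16.8% of all genes. Sox4, Sox11, Sox12 and Sox5 carried H3K4me3 only, as did 42.1% of all genes. By group, H3K27me3 lay at an end of 0 of 3 SoxC, 2 of 3 SoxD and 2 of 2 SoxE genes, numbers too small to compare. Sox13 had H3K4me3 only with end windows of 500 bp. Among islands with heights at or above the median of their mark, H3K4me3 remained at an end of 6 members, all but Sox6 and Sox8 (37.4% of all genes), and H3K27me3 at an end of the same 4 (17.8% of all genes). Sox9 kept its H3K27me3 there only as a tie, because its height of 12 equals the median.

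Over the wider stretch of 30 kb either side, the members had 18 islands of H3K4me3 and 24 of H3K27me3, 16 of the latter at Sox6. All 8 members had H3K4me3 there (73.7% of all genes) and 6 had H3K27me3 (43.8%). Islands of the marks overlapped each other at 5 members (29.8% of all genes), which were Sox5, Sox6, Sox13, Sox8 and Sox9. Among islands with heights at or above the median of their mark the overlap was found at 2 members (7.62% of all genes). These were Sox13 and Sox9, and the H3K27me3 height at Sox9 only equals the median. Of the 18 H3K4me3 islands, 9 were overlapped by H3K27me3 (50%), against 29.2% of the 14361 H3K4me3 islands of the genome. The 5 that lay wholly under it were islands inside Sox6 and Sox13, an island over the neighbour Etnk2 and a small island outside Sox8. The share wholly under it was not computed over all islands, so this count is a description only. The median summed length per member was 10.9 kb for H3K4me3 and 8.70 kb for H3K27me3, against 4.60 kb and 0 kb over all genes. Long genes have more room for islands. Sox5 and Sox6 are long, at 954 and 570 kb, while the median gene length was 7.0 kb over the members and 17.3 kb over all genes.

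The plot of island width against height sets these islands among all islands of their mark. At gene ends the members' H3K4me3 islands had a median width of 6.90 kb and a median height of 168.5, against 4.20 kb and 112 for all genes with such an island. For H3K27me3 the medians were 6.70 kb and a height of 19.5 at the 4 members that had it, against 8.40 kb and 23 over all genes with it. Sox13, Sox8 and Sox9 were below both of these last values, and Sox6 was well above them, at 28.4 kb and a height of 61.

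**Figure D1:**
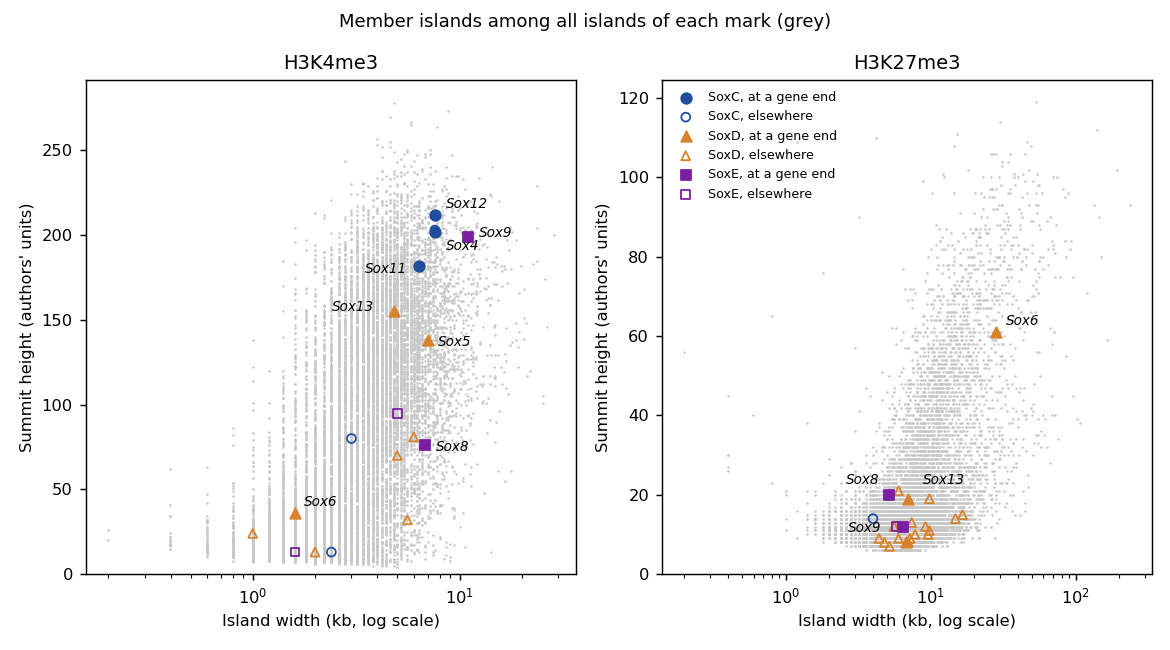
Width of each island (kb, log axis) against its summit height (authors' units) for H3K4me3 (left) and H3K27me3 (right). Grey points are all islands of the mark, and coloured points are islands of the members, filled where they lie at a gene end (1 low H3K27me3 island of Sox6, at its far end, is not named). The 3 SoxC genes and Sox9 stand between 182 and 212 in H3K4me3 height, and in H3K27me3 the island over the Sox6 start (28.4 kb, height 61) stands above all other member islands, which reach 21 at most.

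The SoxC genes, short genes that encode activators of progenitor programmes, carried tall H3K4me3 islands and no H3K27me3 at their ends. Sox4 (gene ID 20677, chromosome 13, 28948919 to 28953699) lay whole under an H3K4me3 island of 7.60 kb with a height of 202 (28948201 to 28955799). That island was wider than 93.7% and taller than 97.0% of all H3K4me3 islands, and reached from 2.10 kb upstream of the gene's start to 5.50 kb downstream. A further island of 3.0 kb and height 80 stood 3.50 to 6.50 kb upstream. Both islands overlapped the long noncoding RNA gene Gm46405, which spans Sox4, so H3K4me3 of the 2 genes cannot be told apart there.

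Sox12 (gene ID 20667, chromosome 2, 152393611 to 152398046) had the tallest H3K4me3 island of the 8 genes. It was 7.60 kb wide with a height of 212 (152393001 to 152400599), taller than 98.3% of islands, and covered the whole gene. A low island (2.40 kb, height 13) stood 6.76 to 9.15 kb upstream. Beyond it, 11.0 to 18.6 kb upstream, lay an island of 7.60 kb and height 203 over the neighbouring genes Zcchc3 and 6820408C15Rik. The only H3K27me3 island within 30 kb (4.0 kb, height 14) stood 20.2 kb downstream of the Sox12 start, over Nrsn2 and Gm14164, and touched no H3K4me3.

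Sox11 (gene ID 20666, chromosome 12, 27334268 to 27342718) had 1 island within 30 kb. It carried H3K4me3 over 6.40 kb with a height of 182 (27337801 to 27344199), taller than 92.1% of islands. It ran from 1.48 kb upstream to 4.92 kb downstream of the start and covered 58.2% of the gene. In all 3 SoxC genes the summit stood just downstream of the start, at 1.25 kb in Sox4, 0.99 kb in Sox11 and 0.622 kb in Sox12.

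The SoxE genes, Sox9 and Sox8, carried both marks, in different arrangements. Sox9 (gene ID 20682, chromosome 11, 112782210 to 112787757) had the widest H3K4me3 island of the 8 genes, 11.0 kb with a height of 199 (112778601 to 112789599), wider than 98.5% and taller than 96.4% of all H3K4me3 islands. It covered the whole gene. A low H3K27me3 island of 6.40 kb and height 12 (112776201 to 112782599) joined it from the lower-coordinate side and ended 0.389 kb inside the gene, so that 36.4% of the H3K4me3 island and 7.03% of the gene lay under H3K27me3. A height of 12 is the median of all H3K27me3 islands.

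Sox8 (gene ID 20681, chromosome 17, 25565893 to 25570686) had a wide H3K4me3 island that was much lower than that of Sox9. It was 6.80 kb wide with a height of 76 (25567401 to 25574199), taller than 43.4% of islands. An H3K27me3 island of 5.20 kb and height 20 (25567601 to 25572799) lay wholly inside it, across the start, and 76.5% of the H3K4me3 island and 64.4% of the gene lay under H3K27me3. The long noncoding RNA gene Cerox1 lies 0.125 kb from Sox8 and shares both islands, so the 2 genes cannot be told apart here. Further off, an H3K4me3 island of 5.0 kb and height 95 overlapped Lmf1 without H3K27me3, and a small one of 1.60 kb and height 13 lay wholly under an H3K27me3 island of 5.80 kb and height 12, on the downstream side.

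**Figure D2:**
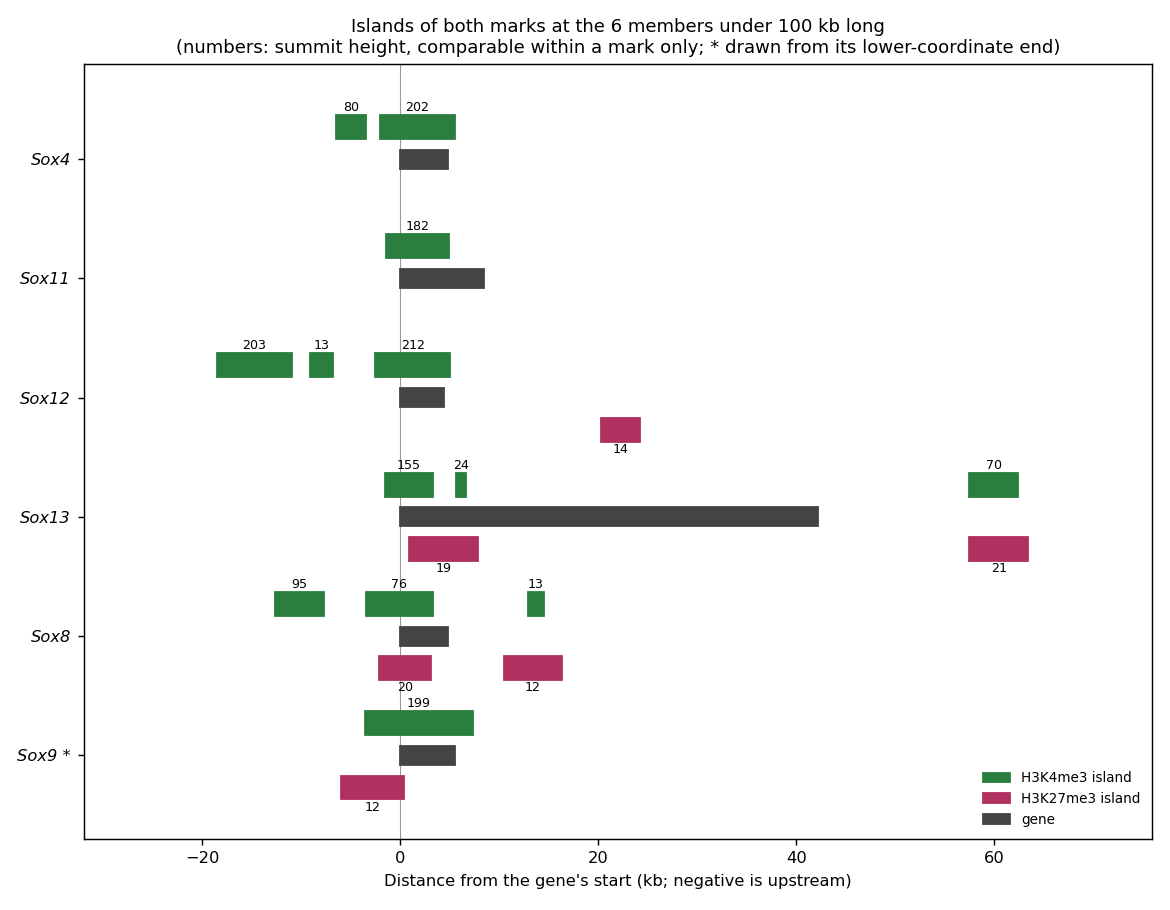
Islands of H3K4me3 (above each gene) and H3K27me3 (below) at the 6 members shorter than 100 kb, by distance from the gene's start in kb, with genes drawn in the direction of transcription except Sox9, drawn from its lower-coordinate end. Numbers give summit heights. H3K27me3 is missing at the 3 SoxC genes except for the island 20.2 kb from Sox12, lies just downstream of the Sox13 start and across the lower-coordinate end of Sox9, and covers the start of Sox8. It also lies on the downstream side of Sox13 and Sox8, outside these genes.

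The SoxD genes were Sox13, with partly overlapping marks near its start, Sox5, with H3K4me3 alone at its start, and Sox6, with both marks there. Sox13 (gene ID 20668, chromosome 1, 133382300 to 133424459) had an H3K4me3 island of 4.80 kb and height 155 over its start (133421201 to 133425999), taller than 81.7% of islands. An H3K27me3 island of 7.0 kb and height 19 (133416601 to 133423599) began 0.86 kb downstream of the start and ran into the gene, so the marks overlapped over 2.40 kb, and the promoter sequence itself lay under H3K4me3 only. A second H3K4me3 island of 0.999 kb and height 24 lay wholly under H3K27me3 inside the gene. Past the other end, Etnk2 had an H3K4me3 island of 5.0 kb (height 70) wholly under 6.0 kb of H3K27me3 (height 21).

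Sox5 (gene ID 20678, chromosome 6, 143828425 to 144782287) had H3K4me3 alone at its start, 7.0 kb wide with a height of 138 (144778001 to 144784999), taller than 73.4% of islands. Deep in the gene, 570 to 576 kb from the start, a lower H3K4me3 island of 5.60 kb and height 32 overlapped an H3K27me3 island of 7.0 kb and height 8 over 2.80 kb. That H3K4me3 island also touched the long noncoding RNA gene Gm38531. A small H3K4me3 island (2.0 kb, height 13) stood at 599.5 kb, and an H3K27me3 island (7.80 kb, height 10) at 801 kb from the start, where it touched Gm52485. In all, H3K27me3 covered 1.55% of the gene.

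Sox6 (gene ID 20679, chromosome 7, 115470872 to 116040776) was the member with the most H3K27me3. The island over its start was 28.4 kb wide with a height of 61 (116022801 to 116051199), wider than 97.2% and taller than 95.2% of all H3K27me3 islands, and reached 10.4 kb upstream. Inside it lay 2 H3K4me3 islands, both wholly under H3K27me3. The first, 1.60 kb wide with a height of 36, stood 0.377 kb from the start. The second, 6.0 kb wide with a height of 81, stood 4.78 to 10.8 kb into the gene. It covered both the long noncoding RNA gene Sox6os and the window of listed start 2 of Sox6, which cannot be told apart there. The height of 36 exceeded 24.8% of all H3K4me3 islands, the lowest rank among the H3K4me3 islands at annotated ends of the 8 genes. The taller island over start 2 does not enter this ranking.

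Along the rest of Sox6 a further 15 H3K27me3 islands were spread to the far end of the gene. They were 4.40 to 16.6 kb wide with heights of 7 to 19, well under the height of 61 at the start, and none of them overlapped H3K4me3. Together the 16 islands covered 136 kb or 23.8% of the gene. Among the 227 protein-coding genes of 500 kb or more, a limit chosen after the values were seen, the median was 1 H3K27me3 island and 0.951% of the gene, and 12.3% had 5 or more islands. Only 6 of these genes had more islands than Sox6, namely Camta1 (22), Asic2, Foxp1 and Nfia (18 each), and Frmpd4 and Npas3 (17 each), and 4 had a larger share covered. Sox5, although longer, had 2 islands. Of the 16 islands, 8 had heights at or above the median of the mark.

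**Figure D3:**
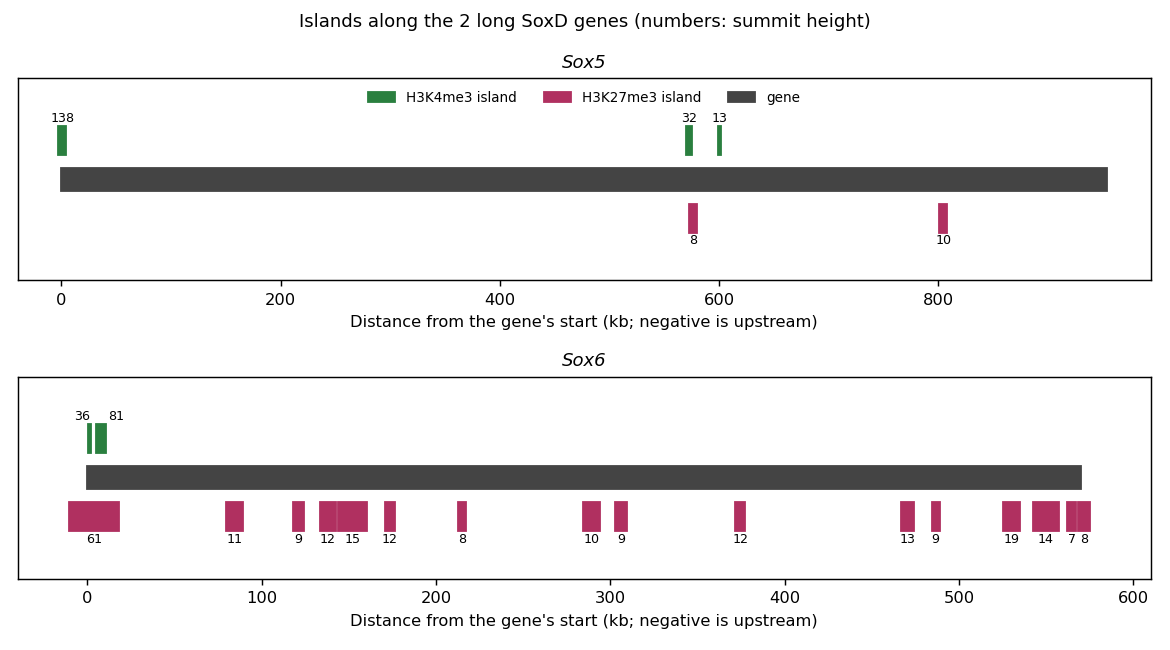
Islands of H3K4me3 (above) and H3K27me3 (below) along Sox5 and Sox6, by distance from the gene's start in kb, with summit heights as numbers. H3K27me3 in Sox6 is highest over the start (61) and recurs 15 times along the gene at heights of 7 to 19, while Sox5 has H3K27me3 at 2 places, at heights of 8 and 10.

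The 12 listed starts separated by their CpG sites. The 7 windows touched by H3K4me3 held 11 to 47 CG in 300 bases, and the other 5 held 2 to 4. Sox13 (40 CG) and Sox12 (47 CG) had the most, above 94.9% and 98.2% of the 21045 listed starts of protein-coding genes. Both marks touched the windows of Sox8 (21 CG) and of starts 1 and 2 of Sox6 (11 and 13 CG). H3K4me3 covered 64.7% of the window of start 1, whose start position (116038744) fell just outside the island beginning at 116038801, and covered the others whole. Sox11 had 21 CG as Sox8 did, yet lay under H3K4me3 alone. The listed start of Sox5 is internal (chr6:143947057-143947356) and, with 3 CG, lay under neither mark, as did starts 3, 4 and 6 of Sox6 with 2 each, and start 5 of Sox6, with 4, lay under H3K27me3 only.

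Over all listed starts, the share under H3K4me3 rose from 6.51% at 0 to 4 CG to 94.5% at 25 CG or more, and the share under H3K27me3 was 6.39% and 20.6% in the same classes. Starts with 10 to 14 CG, the class of Sox4 and of starts 1 and 2 of Sox6, were under H3K4me3 in 74.5% and under H3K27me3 in 25.3% of cases. The letters AACAAT and AACAAAG, forms of the core that SOX proteins recognise, were searched on both strands. A match to either cannot be a match to the other at the same place. AACAAT was found in 8.91% of all listed starts and among the members in start 5 of Sox6, at 2 places. AACAAAG was found in 4.99% of all starts and at 1 place each in starts 1, 3 and 4 of Sox6.

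**Figure D4:**
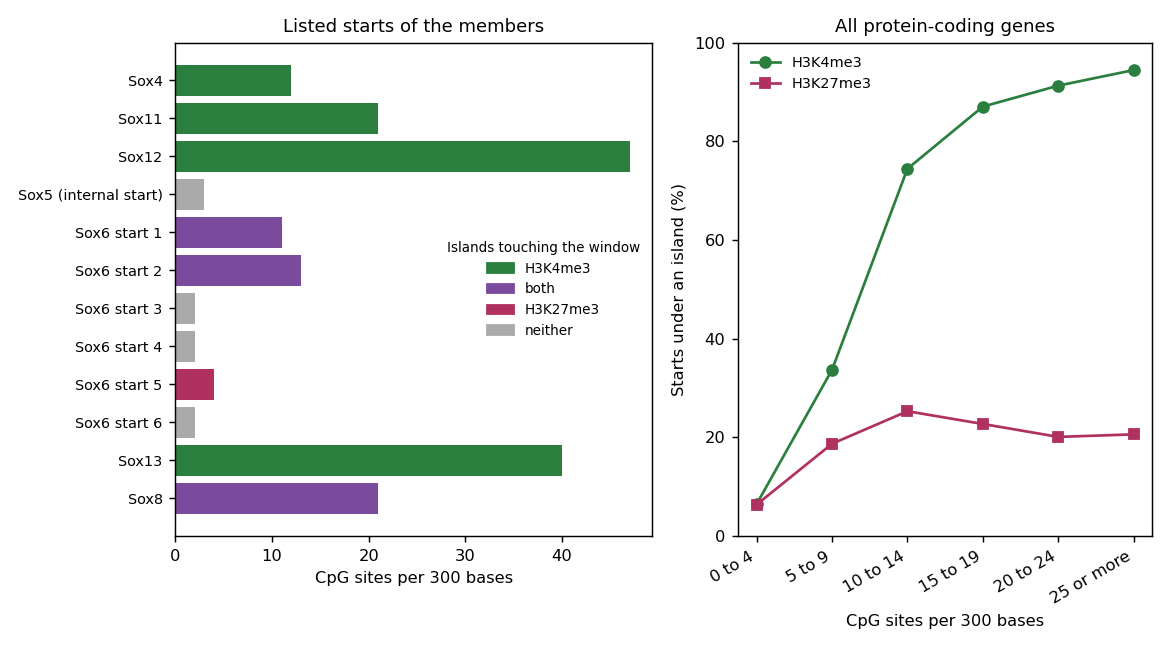
Left, number of CG in the 300 bases of each listed start of the members, coloured by the islands that touch it. Right, share of listed starts of all protein-coding genes under an island of each mark, by number of CG. The 7 member starts touched by H3K4me3 have 11 or more CG and the 5 others have 4 or fewer.

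Several members lie in wide spaces without other protein-coding genes, and some H3K27me3 islands were called there at a distance. The genome held 11341 H3K27me3 islands, and their density over comparable spaces was not computed. The counts below therefore describe these spaces and do not set them apart from others. Sox9 is 1056 kb from Gm11677 on one side and 457 kb from Slc39a11 on the other. Between these, 4 H3K27me3 islands stood in a row 352 to 391 kb to the lower-coordinate side of Sox9 (112390801 to 112429999), covering 36.0 of 39.2 kb with heights of 8 to 21 and touching no annotated gene. A further H3K27me3 island (4.0 kb, height 10) stood 581 kb away on that side. On the other side, 409 kb away, an H3K4me3 island of 5.0 kb and height 86 lay at the long noncoding RNA gene 2610035D17Rik, without H3K27me3. A lower H3K4me3 island (1.60 kb, height 12) touched the same noncoding gene 376 kb away, also without H3K27me3.

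Sox11 is 854 kb from Cmpk2 and 1095 kb from Dcdc2c, and no H3K4me3 island other than its own was called in that space. H3K27me3 was called there at 4 places, none closer than 214 kb, the widest of 17.8 kb and height 27 over the long noncoding RNA genes Gm30401 and Gm20187. Sox4 is 797 kb from Prl5a1 and 238 kb from Cdkal1. Its nearest H3K27me3 island, 59.1 kb away (7.40 kb, height 13), overlapped an H3K4me3 island of 6.80 kb and height 40 at the long noncoding RNA gene 2610307P16Rik. The space beside Sox6 towards Insc held 6 more H3K27me3 islands, the widest of 35.2 kb, and no H3K4me3. The space beside Sox5 towards Etnk1 held 6 H3K27me3 islands, the widest of 22.0 kb, and a low H3K4me3 island (1.40 kb, height 8) wholly under H3K27me3. The assignment of distant islands to these genes was not tested.

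**Figure D5:**
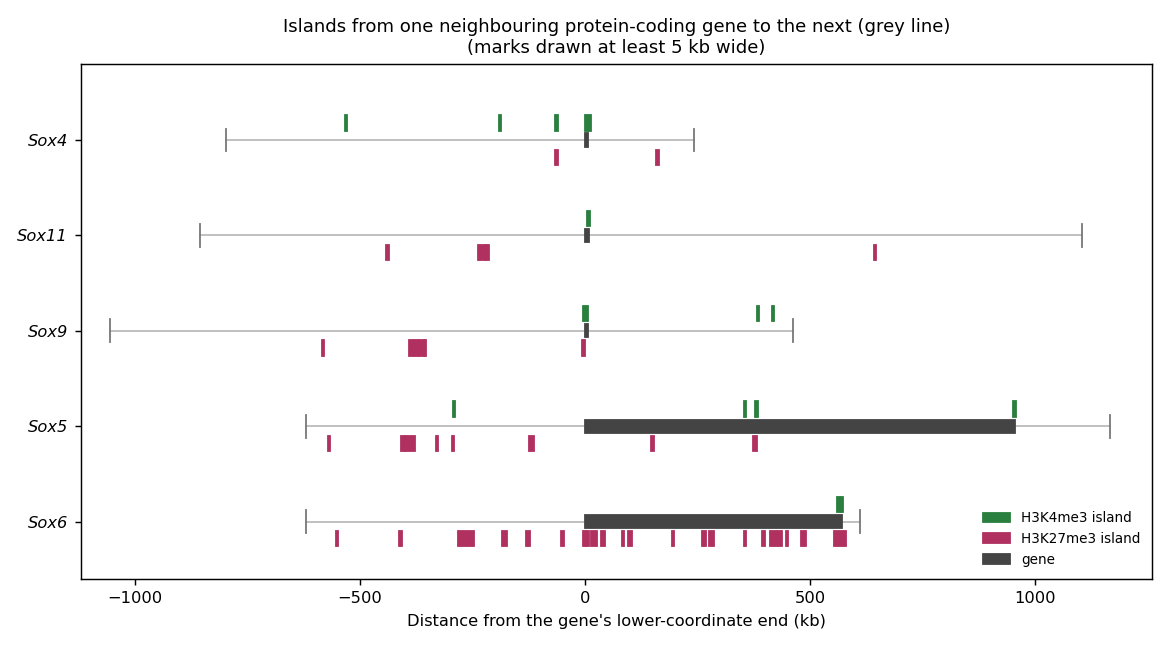
Islands of H3K4me3 (above each line) and H3K27me3 (below) in the space from one neighbouring protein-coding gene to the next, by distance in kb from the member's lower-coordinate end, with islands drawn at least 5 kb wide. Sox11 has no H3K4me3 other than at the gene, and Sox6 has H3K27me3 on both its gene and the space beside it. In the Sox9 space, 4 H3K27me3 islands stand together 352 to 391 kb to the lower-coordinate side, drawn at negative distances.

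The other SOX genes were counted in the same way, and no difference from the members was tested. Of 11 genes of the SoxB, SoxF and other groups, Sox10 included, 10 had H3K27me3 at an end (22.4% of all genes) and 8 had H3K4me3 (58.9%), and none had H3K4me3 without H3K27me3 (42.1%). Their median widths were 20.5 kb for H3K27me3 and 2.80 kb for H3K4me3. Sox6 had 28.4 and 1.60 kb at its start. Sox18 had heights of 67 for H3K4me3 and 24 for H3K27me3, against 76 and 20 at Sox8. Both marks were found at Sox1 (133 kb of H3K27me3 and 0.999 kb of H3K4me3), which acts in neural progenitors, at Sox2 (50.2 and 2.80 kb), a pluripotency and neural factor, at Sox3 (19.8 and 3.0 kb) and at Sox21 (35.2 and 3.40 kb). Sox14 (31.4 kb) and Sox10 (19.2 kb), the glial relative of Sox8 and Sox9, had H3K27me3 only, and Sox15 had neither.

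Cartilage matrix genes, which SOX9, SOX5 and SOX6 activate in chondrocytes, had H3K4me3 at 10 of 15 members (58.9% of all genes) and H3K27me3 at 9 of 15 (22.4%), with both at 6 (16.8%). The H3K4me3 count is near the share of all genes. Their H3K4me3 islands were 4.20 kb wide and 34.5 high at the median. Both marks lay at Col2a1, the main cartilage collagen (H3K4me3 4.40 kb wide with a height of 19, H3K27me3 26.6 kb wide with a height of 72), and at the minor collagen genes Col9a2 (3.40 and 4.0 kb), Col9a3 (4.0 and 5.0 kb) and Col11a2 (6.20 and 2.40 kb). Col11a1, Matn3, Hapln1 and Hapln3 had H3K4me3 only, with heights of 33 to 76. Matn1, Cnmd and Snorc had H3K27me3 only, and Col9a1 and Ucma had neither.

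Factors of skeletal condensation and bone had H3K4me3 at 8 of 10 genes (58.9% of all genes) and H3K27me3 at 4 (22.4%). Runx2 (7.20 kb, height 33), Runx3 (5.80 kb, height 54), Sp7 (25.2 kb, height 101) and Trps1 (3.40 kb, height 76) had H3K4me3 only. Of these, only Sp7 was above 90, the median height of all H3K4me3 islands. Nkx3-2, Foxc1, Bmpr1a and Bmpr1b had both marks, with H3K27me3 of 14.2 to 35.6 kb, and Gdf5 and Mef2c had neither. The H3K4me3 heights of the genes with both marks were 22, 91, 153 and 21 in that order. Of 7 genes listed as targets or partners of SoxC proteins, all had H3K27me3 (22.4% of all genes) and 6 had H3K4me3 as well (16.8% with both). The Hippo pathway factor gene Tead2 had H3K4me3 over 3.80 kb (height 99) and H3K27me3 over 55.8 kb, the neuronal tubulin gene Tubb3 had 4.40 and 7.60 kb, the neural factor genes Pou3f2 and Pou3f3 had 4.20 and 33.8 kb and 5.20 and 53.6 kb, and Dcx had H3K27me3 only. Several of these 7 genes are neuronal.

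Genes most like each member were sought by 4 quantities, the log2 width and log2 height of the widest island of each mark at a gene end, each scaled by its SD over all genes, across the 2 libraries. For Sox12 the nearest were Ier5l (7.60 kb of H3K4me3, height 212) and Atg2b (7.60 kb, 213, tied with 2 others), and for Sox11 Bud31 and Pdap1 (6.40 kb, 182), all without H3K27me3. For Sox4 they were Zcchc3 and 6820408C15Rik, which share the island upstream of Sox12. For Sox5 they were Gramd4 and Ino80d, tied with 2 others at a height of 137. For Sox9 they were Rras (11.4 kb of H3K4me3 and 5.40 kb of H3K27me3) and Unc5b (10.8 and 5.60 kb). For Sox6 they were Fgf5 (1.40 and 21.2 kb) and Cdc20b (1.40 and 19.4 kb), for Sox13 Mtcl1 (5.60 and 7.0 kb) and Marchf3 (4.60 and 6.20 kb), and for Sox8 Ltc4s (7.0 and 5.0 kb) and Tpd52 (6.0 and 4.60 kb).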

How the data were processed

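Chromatin immunoprecipitation libraries for H3K4me3 and H3K27me3, 1 each, came from EdU-positive incisor pulp cells. The submitters' processing notes name BWA, SICER and mm10, with no versions or settings. The tracks deposited by the authors give summits and islands for each mark, per the file headers. The score of each summit, a whole number deposited by the authors, is the height used here, and its scaling between libraries is not given. The files hold no read counts, so depth is unknown and limits any statement that an island is missing. Each summit lay within the island of the same place in its track.

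Gene positions came from a RefSeq table of GRCm38.p6 (mm10), without exons. Islands were collected within 30 kb of each member by overlap of at least 1 bp, and gene-end calls used 1 kb either side of both annotated ends. The start is the 5′ end by the strand of the RefSeq promoter table. Positions are 1-based. Lists, members and settings were chosen with earlier results of these data known. Names were drawn from all members, genes sharing an island with a member or lying within 30 kb, up to 4 genes per list and state in list order, and the 2 genes nearest each member. Sox18, Dlx1, Dlx2, Neurod1 and Wnt5a were named outside the list order. The promoter sequences, spaces between genes and genes of 500 kb or more were added after the data were seen. Overlap code was tested on simulated islands. Python 3.11.15 with pandas 2.3.3 and numpy 2.4.6 was used. The list of glial markers is not reported here.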

Additional observations from a re-analysis of the deposited data

How the results depend on the processing

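With the higher-summit islands only (heights at or above the median of the mark), the marks overlapped at 2 members (7.62% of all genes) instead of 5 (29.8%), and the median summed lengths were 6.70 kb of H3K4me3 and 5.20 kb of H3K27me3. In that set Sox6 and Sox8 had H3K27me3 only at their ends, and Sox9 and Sox13 had both marks. Sox9 had both, and counted for the overlap, only because its H3K27me3 height of 12 equals the median. With flanks of 10 kb the medians were 10.3 kb of H3K4me3 and 6.70 kb of H3K27me3, and with flanks of 100 kb 13.3 kb and 12.4 kb. The other 24 values of the counts and medians moved by less than 1.5 times or not at all. Some of these come from joining islands within 1000 bp, which changed no value. The smallest gap between the 4 islands in a row beside Sox9 was 1001 bp, so joining could not act there. The values from that setting therefore say little about stability. With gene-end windows of 500 bp Sox13 had H3K4me3 only. No paired analysis was possible because each mark has 1 library. Leaving out a library was not possible either. Depth is unknown and limits any statement that an island is missing.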
